A study of Gallus gallus with 2 samples.

Results

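Genes known from heart macrophages were compared between hearts of chicken embryos (Gallus gallus) exposed to AAPH and hearts of embryos given saline. AAPH, or 2,2-azobis(2-amidinopropane) dihydrochloride, is a compound that releases free radicals. The set was given by name as C1QA, C1QB, C1QC, CTSS, CSF1R and DMB2. Of these 6 symbols, 5 were matched to the 13011 gene names of the data, and C1QC was not analysed here. CTSS, C1QB and DMB2 were chosen by their AAPH-to-saline ratio in these same 2 libraries, so the ratios below describe the libraries and carry no test.

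The AAPH group is 1 library from hearts taken at Hamburger-Hamilton stage 37 (day 11), after 2.6 µmol AAPH in 100 µL had been given into the air chamber from stage 35 and again every other day until day 10. The control group is 1 library from hearts of the same stage and day, labelled saline. Its volume (100 µL), first injection stage (35) and last injection day (10) are listed as for AAPH. Incubation at 38 °C and 70% humidity is listed for both groups. How many hearts were pooled is not stated, and hearts came from the embryos still alive. Since each group is a single library, replicate error is unknown and no difference below has a replicate check. "AAPH hearts" and "saline hearts" stand for these 2 libraries.

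Macrophages settle in the heart during embryonic life, where they take up dying cells and debris. They survive through the receptor encoded by CSF1R, and in mammals tissue macrophages are a main source of C1q, the first component of the classical complement pathway. C1q is built from A, B and C chains, whose genes lie side by side. CTSS encodes cathepsin S, a lysosomal protease that trims the invariant chain from class II MHC molecules, and DMB2 encodes a beta chain of the chicken DM molecule, which helps class II molecules exchange that remnant for an antigen peptide.

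The 5 genes did not share a direction. Cathepsin S and the C1q B chain were lower in AAPH hearts, DMB2 was higher, and the receptor CSF1R and the C1q A chain lay closer to equal. Levels are in FPKM (fragments scaled to transcript length and to the size of the library), with all transcripts of a gene summed. Ratios are log2((AAPH FPKM + 1)/(control FPKM + 1)), a scale that understates the change of low genes, and a gene was called at 1.5-fold (0.585 on this scale). At that fold 1 of the 5 genes was higher, 2 were lower and 2 were neither, with a median log2 ratio of −0.31. Among the 10106 genes that averaged at least 1 FPKM, 6.66% were past 1.5-fold, 2.73% higher and 3.93% lower, and the median was 0.0039. Genes at or above that mean are called tested below, although no significance test was possible. Because 3 of the 5 genes were picked for their ratios, nothing is read from their share against this background. The order of the levels differed between the libraries. In AAPH hearts it ran from CTSS through CSF1R, DMB2 and C1QB to C1QA, and in saline hearts from CTSS through C1QB, CSF1R and C1QA to DMB2. Without replicates it is unknown which neighbours in these orders differ beyond their spread.

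**Figure D1:**
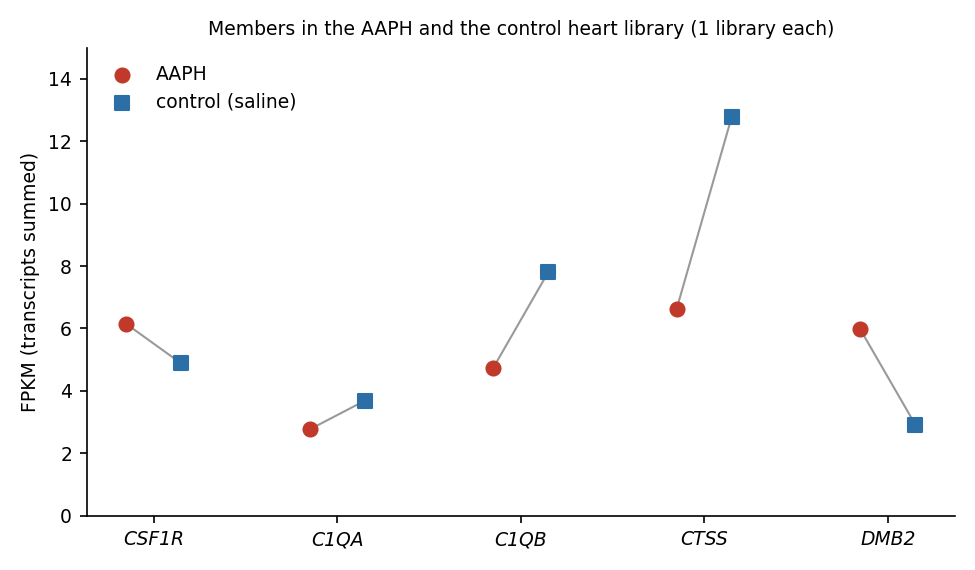
FPKM (vertical axis, starting at 0) of the 5 genes in AAPH hearts (red circles) and the control library (blue squares), 1 library each and no error bars. CTSS stands at 6.64 FPKM in AAPH hearts and 12.8 in saline hearts, and DMB2 at 5.98 in AAPH hearts and 2.92 in saline hearts.

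CSF1R, the receptor for the macrophage growth factors CSF1 and IL34, was at 6.15 FPKM in AAPH hearts and 4.88 in saline hearts. The log2 ratio was 0.28, within 1.5-fold, and 1485 of the 10106 genes had a ratio as high or higher. Its ligand gene IL34 was at 2.52 FPKM in AAPH hearts and 3.43 in saline hearts (log2 ratio −0.33). CSF1 was not analysed here. The tested genes nearest to CSF1R in the order of the RefSeq gene table (assembly GRCg7b) were PDGFRB (0.07), CAMK2A (0.30), HMGXB3 (−0.19) and NPY7R, which was lower at 0.794 FPKM in AAPH hearts and 1.73 in saline hearts (−0.60).

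The transcription factor gene SPI1, which encodes PU.1 and drives CSF1R in myeloid cells, was at 2.92 FPKM in AAPH hearts and 2.94 in saline hearts. Of 12 tested genes on a list of CSF1 receptor ligands, partners and downstream factors, 1 was higher, 0 were lower and 11 were neither, with a median of 0.08. The higher gene was PIK3R1, a regulatory subunit of PI3 kinase, at 2.90 FPKM in AAPH hearts and 1.05 in saline hearts (0.93). The adaptor gene GRB2 followed (0.35), and SOCS1, a brake on cytokine signalling, was lowest (−0.40). After rescaling to TPM, in which each library is divided by its own sum, GRB2 was also past 1.5-fold (0.60). TPM moved the median of all tested genes from 0.0039 to 0.23, so ratios in TPM are to be read against 0.23.

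C1QA, the A chain of C1q, was at 2.77 FPKM in AAPH hearts and 3.68 in saline hearts. This is a log2 ratio of −0.31, within 1.5-fold. C1QB, the B chain, was at 4.73 FPKM in AAPH hearts and 7.81 in saline hearts, a log2 ratio of −0.62. Both chains were thus lower by value, C1QB alone past 1.5-fold, and their sum was 7.50 FPKM in AAPH hearts and 11.5 in saline hearts. C1QB made up 63.1% of that sum in AAPH hearts and 67.9% in saline hearts, a share that no library scaling can change. The C1QB ratio lay close to the 1.5-fold line, and it came within 1.5-fold after rescaling to TPM (−0.39). The median of all tested genes in TPM was 0.23, against which this value is to be read.

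The value of C1QB is the sum of 4 assembled transcripts, all with the same nearest reference transcript, and these exchanged places between the libraries. Whether any of them covers the neighbouring C1QC could not be checked without coordinates, and the C1QB value, its share of the C1q sum and the exchange are given with that limit. Transcript 1 was at 1.75 FPKM in AAPH hearts and 3.28 in saline hearts. Transcript 3 was at 2.49 FPKM in AAPH hearts and listed at 0 in saline hearts. Transcript 4 was at 0.000105 FPKM in AAPH hearts and 4.23 in saline hearts, and transcript 2 was low in both (0.491 in AAPH hearts, 0.295 in saline hearts). Transcript 3 held 52.6% of the AAPH sum and transcript 4 held 54.1% of the saline sum. Each of them was thus the leading transcript of 1 library and near 0 in the other. Such an exchange, with 1 transcript at 2 FPKM or more in one library and at 0.01 or less in the other and another transcript the opposite way, was found in 114 of 6743 tested genes with 2 or more transcripts (1.69%). A tested gene averaging below 2 FPKM cannot meet these limits but was not left out of the 6743. The share among genes able to show an exchange was not computed. The FPKM limits for this count were chosen after the C1QB values were seen.

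**Figure D2:**
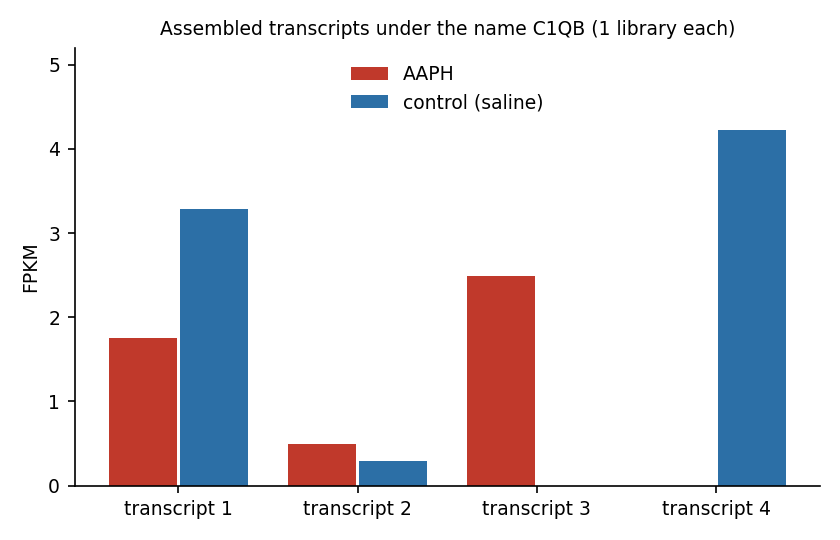
FPKM (vertical axis, starting at 0) of the 4 assembled transcripts named C1QB, with the AAPH library in red and the control library in blue, 1 library each. Transcript 3 stands at 2.49 FPKM in AAPH hearts against 0 in saline hearts, and transcript 4 at 0.000105 in AAPH hearts against 4.23 in saline hearts.

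The C1q genes can be set beside their neighbours and beside the rest of the complement system. In the RefSeq order C1QC lies between C1QB and C1QA, and the nearest tested genes outside the cluster are EPHB2, DISP3, WNT4 and CDC42. Their log2 ratios were −0.06, 0.05, −0.04 and 0.05, closer to 0 than those of both C1q chains. Of 18 tested complement genes other than C1q, 1 was higher, 1 lower and 16 neither, with a median of 0.02 and 9 ratios on each side of 0. The higher gene was C3AR1, the receptor for the C3a fragment, at 2.15 FPKM in AAPH hearts and 1.02 in saline hearts (0.64). The smallest fragment numbers that give the C3AR1 ratio are 2 in AAPH hearts and 1 in saline hearts, with a counting interval of 0.109 to 124. The true numbers may well be larger, and the interval would then be narrower, so nothing is read from its width. The lower gene was C8G, a subunit of the membrane attack complex, at 8.89 FPKM in AAPH hearts and 15.3 in saline hearts (−0.72). C1QTNF2 (0.49) and C1QTNF5 (−0.46), which carry C1q-like domains, stayed within 1.5-fold. Rescaled to TPM, the complement median was 0.22, with 4 genes higher and C8G within 1.5-fold. The median of all tested genes in TPM was 0.23, and 849 of them were higher.

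CTSS had the lowest ratio of the 5 genes. It was at 6.64 FPKM in AAPH hearts and 12.8 in saline hearts, a log2 ratio of −0.85. A total of 145 of the 10106 genes had a ratio as low or lower, CTSS included. It stayed past 1.5-fold under both rescalings, at −0.61 in TPM and −0.64 when the libraries were equalised without haemoglobin and mitochondrial-genome genes. Relative to CSF1R within the same library, CTSS was 1.08 times as high in AAPH hearts and 2.62 times in saline hearts.

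Other lysosomal genes stayed within 1.5-fold on the scale with 1 FPKM added, before rescaling. With a pseudocount of 0.1 FPKM 1 of them was lower. Of 24 tested lysosomal proteases, hydrolases and protease inhibitors without CTSS, 0 were higher and 0 lower at 1.5-fold, and 18 had ratios below 0, with a median of −0.12. The lowest was CTSK, cathepsin K, at 24.1 FPKM in AAPH hearts and 36.5 in saline hearts (−0.58, just within 1.5-fold), followed by HEXA (−0.51), a hexosaminidase subunit. CTSK is also the next gene to CTSS in the RefSeq order, and the next tested genes around them, SSR2, B4GALT3 and ARNT, had ratios of −0.44, −0.18 and −0.36. The neighbours on both sides of CTSS were therefore also below 0 as deposited. The highest members were the acid lipase LIPA (0.39) and cathepsin Z, CTSZ (0.29). In TPM the lysosomal median was 0.12, with 17 of the 24 ratios above 0 and LIPA past 1.5-fold (0.62). That median lay below the 0.23 of all tested genes in TPM.

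DMB2 was the 1 gene of the set past 1.5-fold toward the AAPH library. It was at 5.98 FPKM in AAPH hearts and 2.92 in saline hearts, a log2 ratio of 0.83, and 72 of the 10106 genes had a ratio as high or higher, DMB2 included. The second of its 2 transcripts carried 99.997% of the AAPH value and 99.98% of the saline value. DMB1, its neighbouring copy, was not analysed here, and reads that fit both copies may have been counted under either name, so the value of DMB2 is uncertain in that respect.

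The partner chain DMA lay on the other side of 0 as deposited. It was at 6.35 FPKM in AAPH hearts and 7.62 in saline hearts, a log2 ratio of −0.23. The ratio of DMB2 to DMA within a library was 0.941 in AAPH hearts and 0.383 in saline hearts. The invariant chain gene CD74 was at 57.6 FPKM in AAPH hearts and 79.0 in saline hearts (−0.45), and the class II beta chain gene BLB1 at 14.5 FPKM in AAPH hearts and 15.3 in saline hearts (−0.07). In TPM the ratio of DMA was −0.0034, that of CD74 −0.19 and that of BLB1 0.17, so BLB1 changed sides of 0. All of these lay below the median of all tested genes in TPM, 0.23. CIITA, the class II transactivator, was low, at 0.0527 FPKM in AAPH hearts and 0.201 in saline hearts, and was not counted. BLB2 was not analysed here.

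Of 19 tested genes of antigen presentation and the MHC region other than DMB2 and CTSS, 0 were higher and 0 lower at 1.5-fold, with a median of −0.20 and 15 ratios below 0. The lowest were RFXANK, a class II promoter factor (−0.52), and TAPBP, the tapasin gene of class I loading (−0.47). The highest were IRF1 (0.27) and ERAP1 (0.24). The tested genes nearest to DMB2 in the RefSeq order were DMA, BRD2 (0.09), the class I gene BF1 (−0.46) and TAP2 (−0.20), all within 1.5-fold. DMB2 thus lay above the highest gene of this list by value, as deposited and in TPM, where ERAP1 was highest at 0.46 and DMB2 stood at 1.01. DMB2 was picked for its ratio, so this placement is a description only. The sign of the list median depended on the scaling, since it was 0.04 in TPM with 10 of 19 ratios above 0. TPM also moved the median of all tested genes, from 0.0039 to 0.23. The list median lay below that of all tested genes in both scalings.

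**Figure D3:**
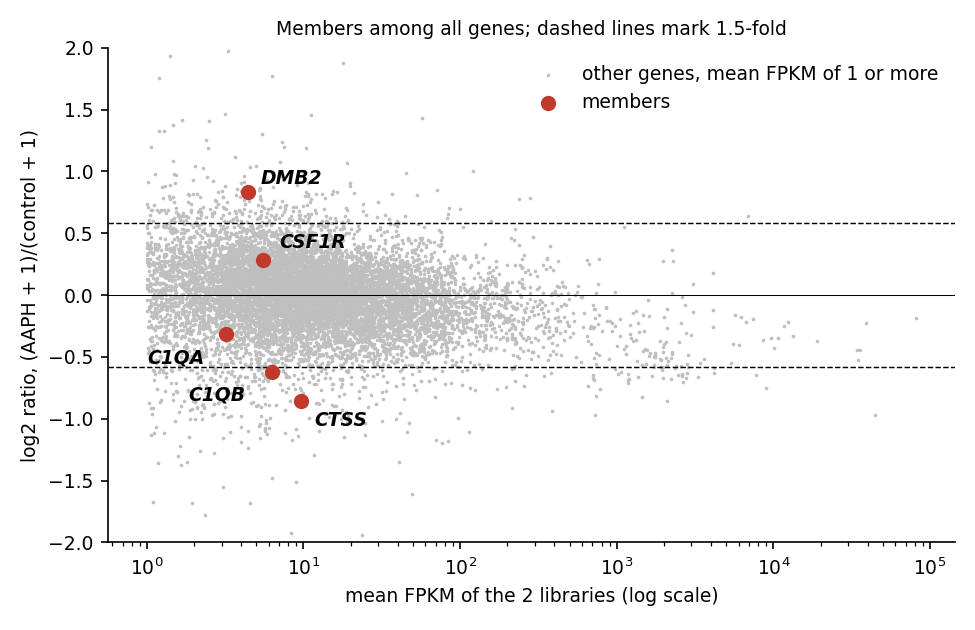
Log2 ratio (vertical axis, AAPH over control with 1 FPKM added) against the mean FPKM of the 2 libraries (horizontal log axis) for genes averaging at least 1 FPKM in grey and the 5 genes in red. DMB2 lies above the upper 1.5-fold line and CTSS and C1QB below the lower one; 23 genes beyond a log2 ratio of 2 either way lie outside the axis.

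The 5 genes were also set among genes of like abundance. Their means ran from 3.22 to 9.71 FPKM, a range that held 3194 genes. In this range 6.61% of genes were past 1.5-fold, 3.07% higher in AAPH hearts and 3.54% lower. A ratio as high as that of DMB2 was reached by 25 of these genes, and one as low as that of CTSS by 41. For C1QB 100 genes were as low or lower, and for C1QA 387. The range was chosen after the values were seen. CTSS, C1QB and DMB2 were picked for their ratios, so nothing is read from these ranks.

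Counting error was estimated for 4 of the 5 genes, on the assumption that their values rest on whole fragments. In 781 genes of 1 transcript and low value, 83.6% had AAPH-to-control ratios that equal a ratio of whole numbers up to 10 times a constant near 1.05, the worth of 1 fragment in AAPH hearts relative to the control library. With constants 1% to 3% away, at most 0.512% did. If the genes here also rest on whole fragments, CTSS had at least 39 fragments in AAPH hearts and 79 in saline hearts. With those numbers the exact binomial (Clopper-Pearson) 95% interval of its FPKM ratio of 0.519 is 0.344 to 0.771. For CSF1R the smallest numbers were 205 and 171, which give a ratio of 1.26 with an interval of 1.02 to 1.55. For the leading DMB2 transcript they were 224 and 115, with a ratio of 2.05 and an interval of 1.63 to 2.59. DMB2 has 2 transcripts and may share reads with DMB1, so whole fragments cannot be taken as given for it. Numbers were searched up to 400, and how often unrelated ratios would find such a pair was not tested. The numbers for CTSS, CSF1R and DMB2 therefore rest on the assumption alone. C1QA had a ratio of 0.751, which 5 and 7 fragments already give, and with those numbers the interval is 0.188 to 2.75 and takes in a ratio of 1. Under that assumption the true numbers may be larger, which would narrow each interval. The smallest numbers depend on how far a ratio reduces as a fraction, not on the level of the gene. Widths therefore cannot be compared between genes, and nothing is read from the C1QA interval taking in a ratio of 1. The intervals cover counting error only, not the difference between hearts, and none was obtained for the 4 transcripts of C1QB. CTSS and DMB2 were picked for their ratios in these same libraries, so nothing is read from their intervals leaving out a ratio of 1.

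The set was then checked against other macrophage markers. Of 39 macrophage symbols outside the set, 26 were found and 14 had a mean FPKM of 1 or more. Their FPKM summed over the 26 was 97.1 in AAPH hearts and 97.1 in saline hearts, and 1 was at 0 in saline hearts. MRC1, CD163 and CD68 were not analysed here. SPI1 and the phosphatidylserine receptor gene TIMD4 (1.26 FPKM in AAPH hearts and 1.06 in saline hearts) were present in both. Other defining genes were below 1 FPKM in both libraries. The chemokine receptor gene CX3CR1 was at 0.465 FPKM in AAPH hearts and 0.664 in saline hearts, and the scavenger receptor gene MARCO at 0.490 in AAPH hearts and 0.333 in saline hearts. CYBB of the phagocyte oxidase was at 0.319 in AAPH hearts and 0.695 in saline hearts, and the pan-leukocyte gene PTPRC at 0.547 in AAPH hearts and 0.815 in saline hearts. Macrophage transcripts were thus present at low levels in both libraries. LGMN, a lysosomal protease that many cells express, made up 46.2 FPKM of the macrophage sum in AAPH hearts and 49.1 in saline hearts.

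The other markers lay on both sides of 0. Of the 14 tested macrophage markers, 1 was higher, 0 were lower and 13 were neither, with a median of 0.17 and 9 ratios above 0. The sign of that median depended on the filter, since it was −0.05 among the markers averaging 5 FPKM or more, and it was 0.05 for the highest transcript alone. The markers averaging 5 FPKM or more were IRF8, STAB1, LYVE1 and LGMN alone, so that median rests on few genes. C3AR1 was highest (0.64), followed by LY86, a partner of a Toll-like receptor relative, at 5.04 FPKM in AAPH hearts and 3.14 in saline hearts (0.54). The lowest were LYVE1 (7.68 FPKM in AAPH hearts and 11.6 in saline hearts, −0.53), which lymphatic endothelium also expresses, and F13A1 (−0.35), which is also on the thrombocyte list. CTSS lay 1.02 below the macrophage median on the log2 scale and C1QB 0.79 below it, while CSF1R lay 0.11 above and DMB2 0.66 above. CTSS, C1QB and DMB2 were picked for their ratios, so their distances from this median are a description only. Under rescaling to TPM the macrophage median was 0.30, with LY86 and TREM-A1 (0.63) also past 1.5-fold. CTSS lay at −0.92 and DMB2 at 0.71 relative to it. The median of all tested genes in TPM was 0.23.

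Genes shared by leukocytes lay near the macrophage markers. Of 14 tested, 0 were higher and 0 lower, with a median of 0.12 and 9 ratios above 0. They ran from BTK (−0.28) and ARHGDIB (−0.28) to CD44 (0.25) and PIK3CG (0.35). The sign of the leukocyte median also depended on the filter, since it was −0.05 among the markers averaging 5 FPKM or more. Those were LAPTM5 (0.18) and ARHGDIB alone, so that median is the midpoint of a single pair of genes. In TPM it was 0.28, where the median of all tested genes was 0.23. In whole hearts, fewer cells of a type and less RNA per cell cannot be told apart.

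**Figure D4:**
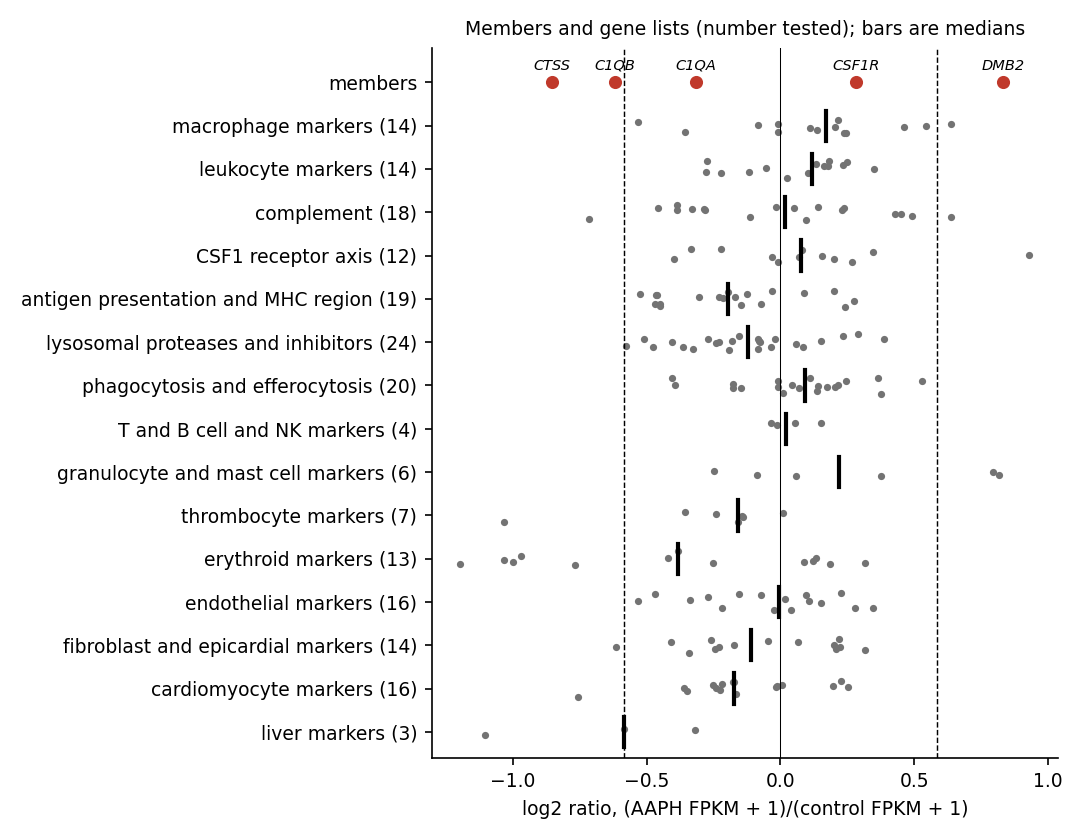
Log2 ratio (horizontal axis, AAPH over control with 1 FPKM added) of the 5 genes (red, top row) and of each tested gene of 15 lists (grey points, with the number tested), black bars being list medians and dashed lines 1.5-fold. CTSS at −0.85 and DMB2 at 0.83 lie outside the range of the 14 macrophage markers, −0.53 to 0.64. Both were picked for their ratios, so nothing is read from this placement.

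Markers of some other blood cells were past 1.5-fold. Of 13 tested erythroid markers, 0 were higher and 5 lower (median −0.38), while 3.93% of all tested genes were lower. The lower ones were the haemoglobin genes HBG1 (46.5 FPKM in AAPH hearts and 108 in saline hearts, −1.20), HBE, HBE1 and HBZ, and TFRC (−0.77). The 5 erythroid ratios above 0 were all of genes other than haemoglobins. The summed erythroid level was 2511 FPKM in AAPH hearts and 3688 in saline hearts, and the highest ratio was that of CA2 (0.31). The haemoglobin gene HBG2 alone held 1695 FPKM of that sum in AAPH hearts and 2267 in saline hearts. Haemoglobin genes are near copies of each other and can share reads, so their single values are uncertain. Of 6 tested granulocyte and mast cell markers, 2 were higher and 0 lower, while 2.73% of all tested genes were higher. The first of these 2 markers was a gene listed as GAL1, at 13.9 FPKM in AAPH hearts and 7.45 in saline hearts (0.82). The other was the cathelicidin CATHL2, at 4.17 FPKM in AAPH hearts and 1.98 in saline hearts (0.79). GAL1 is a RefSeq synonym of the heterophil defensin gene AVBD1 and was counted as that gene, but the symbol may name another gene here; without synonyms 1 marker was higher. In TPM 4 erythroid markers, all haemoglobin genes, were still lower and the same 2 granulocyte markers higher. Over all tested genes, 849 were higher and 162 lower in TPM. The summed level of the 11 granulocyte symbols found, GAL1 included, was 30.2 FPKM in AAPH hearts and 21.7 in saline hearts.

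Of 7 tested thrombocyte markers 1 was lower, CD9, a tetraspanin that many cell types express, at 3.47 FPKM in AAPH hearts and 8.13 in saline hearts (−1.03). Of 18 T, B and NK cell symbols found, 4 had a mean of 1 FPKM or more and none of these 4 was past 1.5-fold, from CD4 (−0.03) to CD3D (0.15). The summed levels were 51.4 FPKM in AAPH hearts and 61.4 in saline hearts for thrombocytes, and 20.6 FPKM in AAPH hearts and 21.1 in saline hearts for T, B and NK cells. CD40 alone held 13.2 FPKM of the T, B and NK sum in AAPH hearts and 12.7 in saline hearts. The part of blood cells of these kinds in the values of CTSS, C1QB and DMB2 was not tested.

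Markers of cells fixed in the heart wall had medians between −0.17 and 0. The cardiomyocyte list had a median of −0.17 with MYH7 lower (−0.76) and CSRP3 highest (0.25). The fibroblast and epicardial list had a median of −0.11 with WT1 lower (−0.62) and LUM highest (0.32), and the endothelial list had a median of −0.0039 between LYVE1 and TIE1 (0.35). All 3 tested liver genes were below 0, and APOA1 (−1.10) and HPD were past 1.5-fold. The other 6 of the 9 liver symbols found averaged below 1 FPKM. Among them was ALB, at 0.158 FPKM in AAPH hearts and 0.279 in saline hearts. Whether the APOA1 and HPD values come from liver RNA was not tested. In TPM the medians of the cardiomyocyte, fibroblast and endothelial lists were 0.09, 0.14 and 0.22, and that of all tested genes was 0.23.

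**Figure D5:**
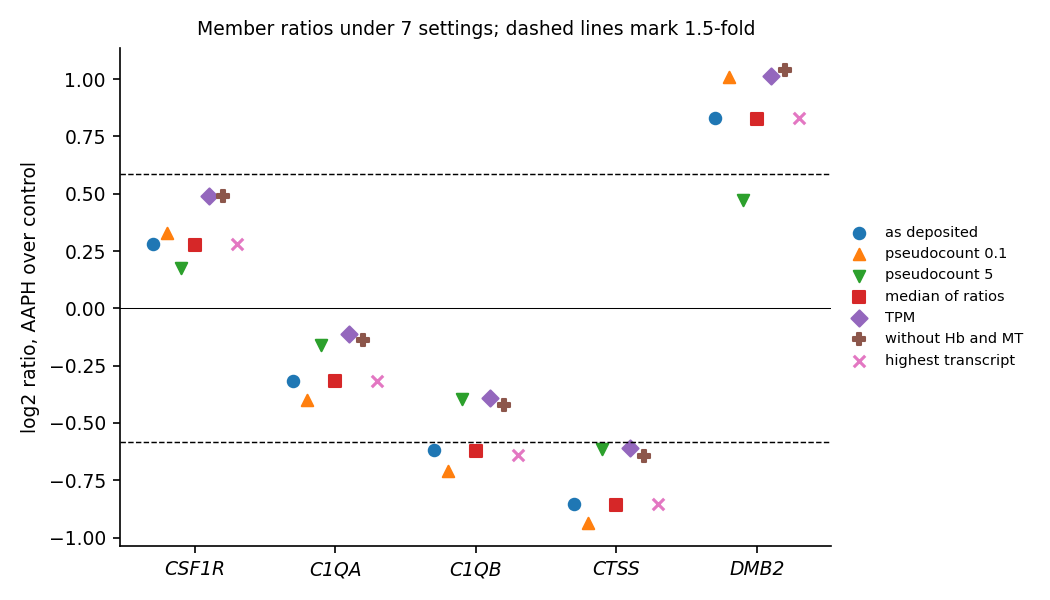
Log2 ratio (vertical axis, AAPH over control) of the 5 genes under 7 settings, each with its own marker, with dashed lines at 1.5-fold. Each gene keeps its side of 0 under all 7, from CTSS between −0.94 and −0.61 to DMB2 between 0.47 and 1.04. A pseudocount cannot change that side, and both rescalings moved all 5 ratios up, so nothing is read from it. The highest transcript is that with the highest FPKM summed over both libraries, which for C1QB led in neither library.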

How the data were processed

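RNA was measured in 1 library per group, and groups follow the labels' chemical entry. Per the submitters' processing notes the authors used bcl2fastq, TopHat2 2.1.1, Cufflinks 2.2.1 and Cuffdiff, with build and annotation not given in the sources used here. Files deposited by the authors hold FPKM per assembled transcript, per the file headers (27335 transcripts, of which 1968 without a gene name were left out). Summed FPKM was 1042407 in AAPH hearts and 1248089 in saline hearts; absolute depth is unknown.

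Transcripts were summed per symbol, with a pseudocount of 1 FPKM and a minimum mean of 1 FPKM for counts over genes. The members and the 15 gene lists were chosen with earlier results of these data known. List symbols were matched by name, regardless of case, and 9 more through synonyms checked after the data were seen; 255 of 375 symbols were found. Genes named are the members, list genes past 1.5-fold, the extremes of each list, defining macrophage markers and RefSeq neighbours; others of a list are summarised. No test was run. The wider use of fragment numbers for the members, beyond pairs with a number of 10 or less, was chosen after the values were seen. Tables were handled with pandas 2.3.3 and numpy 2.4.6 in Python 3.11.15, intervals with scipy 1.17.1 and plots with matplotlib 3.10.9. The calling step was run on simulated data with changes larger than 1.5-fold and counting noise alone. That run does not bear on calls near 1.5-fold or on differences between hearts. Alternatives were other pseudocounts, filters, folds and scalings, and the highest transcript alone, taken by its FPKM summed over both libraries.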

Additional observations from a re-analysis of the deposited data

How the results depend on the processing

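The 5 member ratios kept their direction under every alternative run, and 28 of their 35 alternative values kept their call, the 2-fold threshold included. A pseudocount or a threshold cannot change the direction of a ratio. The highest transcript is the whole value of a gene with 1 transcript, and both rescalings moved all 5 ratios up. The kept directions were therefore largely fixed in advance, and nothing is read from them. C1QB came within 1.5-fold with a pseudocount of 5 FPKM (−0.40), in TPM (−0.39) and when haemoglobin and mitochondrial-genome genes were left out of the scaling (−0.42), and DMB2 with a pseudocount of 5 FPKM (0.47). At a threshold of 2-fold, with 1 FPKM added and no rescaling, the log2 ratios of CTSS (−0.85), C1QB (−0.62) and DMB2 (0.83) were not past it. The ratio of DMB2 was past 2-fold with a pseudocount of 0.1 FPKM (1.01), in TPM (1.01) and under the other rescaling (1.04). The median of all tested genes was 0.23 in TPM and 0.22 under the other rescaling. The rescaled values of C1QB and DMB2 are to be read against these medians, so the changed calls are not changes relative to other genes. Relative to the macrophage median, C1QA was past 1.5-fold with a pseudocount of 0.1 FPKM (−0.65), and C1QB (−0.46) and DMB2 (0.41) were within it with 5 FPKM. With the highest transcript alone, C1QB held 38.8% of the C1q sum in AAPH hearts and 47.1% in saline hearts. That transcript was taken by its FPKM summed over both libraries. For C1QB it was transcript 1, which led in neither library.

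Over all genes, 276 were higher and 397 lower as deposited. The numbers were 849 and 162 in TPM, 845 and 180 after the other rescaling, 754 and 850 for the highest transcript alone, 134 and 246 at a mean of 5 FPKM or more, 36 and 79 at 2-fold, and 98 and 113 in the abundance range of the members. With a pseudocount of 5 FPKM they were 56 and 161, and with 0.1 FPKM 505 were higher. TPM moved the median of all genes to 0.23 and the other rescaling to 0.22. Higher macrophage markers numbered 3 with a pseudocount of 0.1 FPKM and under both rescalings, 2 for the highest transcript alone, and 0 with 5 FPKM, at a mean of 5 FPKM or more and at 2-fold. For the highest transcript alone 1 macrophage and 1 leukocyte marker were lower. Of 300 alternative list counts 56 moved by more than 1.5 times or to or from 0, and 45 of 135 list medians moved by more than 0.1. Each rescaling multiplies all values of a library by 1 constant, so part of these moves follows from the scaling itself. Pseudocounts and thresholds likewise change the counts by construction. Any other cause of these changes was not tested. No paired analysis was possible because each group has 1 library.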

Other observations

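Genes of phagocytosis and of the clearance of dying cells stayed within 1.5-fold on the scale with 1 FPKM added, before rescaling. With a pseudocount of 0.1 FPKM 1 of them was higher. Of 20 tested, 0 were higher and 0 lower, and 13 ratios lay above 0 (median 0.09). The cholesterol exporter gene ABCA1, which macrophages use after taking up cells, was at 2.30 FPKM in AAPH hearts and 1.28 in saline hearts (0.53). PROS1, a bridging ligand for dying cells, was at 7.78 FPKM in AAPH hearts and 5.77 in saline hearts (0.38), and the receptor tyrosine kinase MERTK at 3.26 in AAPH hearts and 2.67 in saline hearts (0.21). The lowest were XKR8, a scramblase that exposes phosphatidylserine (−0.40), and the integrin ITGB5 (−0.39). In TPM the median was 0.29 and 2 of the 20 were past 1.5-fold, while the median of all tested genes was 0.23.

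Among 28 tested macrophage and leukocyte markers, the genes nearest in log2 ratio were named for each gene of the set, by the absolute difference over 2 libraries. CSF1R was nearest to CD44, MPEG1 and IRF8, all within 0.05. C1QA was nearest to BTK, ARHGDIB and F13A1, also within 0.05. CTSS was nearest to LYVE1, at a difference of 0.32, C1QB also to LYVE1, at 0.09, and DMB2 to C3AR1, at 0.19. With 2 libraries a pattern is a single ratio, so these distances describe its size alone.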
